A study of Mus musculus with 14 samples.

Results

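The loci described here are 916 clone-named loci, each listed under the name of a bacterial artificial chromosome (prefix RP23- or RP24-) in place of a gene symbol, and each carrying a coordinate range that overlaps that of a protein-coding locus. They were taken from 67811 loci, of which 22173 had a single clone name and 6728 of those lay in range of a coding locus. An abundance of at least 0.5 FPKM, a fragment count scaled by transcript length and by the total of fragments, in at least 3 of 14 libraries was then required, so these FPKM values chose the members and are given as a description. The members carried 907 distinct names, since 9 names were each used by a pair of loci, and they filled 825 distinct ranges. On the edge of the rule, the library with the third-highest value had 0.5003 FPKM for RP23-32C16.1 in the Gpr107 range and 0.5010 FPKM for RP23-429E19.2 in the Tnip2 range, which were kept. It had 0.4983 FPKM for RP23-337O1.6 in the Cnih1 range and 0.4977 FPKM for RP23-402A24.3 in the Txnrd1 and Eid3 range, which were not.

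Polyadenylated RNA had been sequenced from whole heads, brain included, of C57BL/6J mouse embryos at E12.5. The groups were Zcchc8-/- (KO, 6 libraries), Zcchc8+/- (HET, 3 libraries) and Zcchc8+/+ (WT, 5 libraries), with no other allele or treatment named. No source used here says which part of Zcchc8 the allele changes. Nor is each library tied to a separate embryo, and the spread that the p-values measure may be technical. In a whole head, fewer cells of a type and less RNA per cell cannot be told apart.

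ZCCHC8 holds together the nuclear exosome targeting complex, in which the RNA-binding protein RBM7 and the helicase MTR4 pass short, newly made nuclear transcripts to the RNA exosome for degradation. Promoters of many mammalian genes start transcription in both directions, and the RNA made on the strand opposite to the gene is usually short-lived. Annotators of sequenced mouse clones listed many transcripts under clone names before a gene symbol was given.

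The range of a clone-named locus did not show where its own transcript lay. All 916 members had exactly the same range as a coding locus, with a median of 78279 bases and extremes of 1858 and 2961904 bases, because overlapping models are listed under 1 shared range. Within the range there was 1 coding locus for 592 members and up to 32 for the rest. For 365 members the range held exactly 1 further gene in GENCODE M21 (GRCm38, which is mm10, the build of the files) that no other locus of the range was named for, and that gene is called the further annotated gene. Where the name was known, the same elimination gave the right gene for 26 of 27 loci. The match is therefore probable and not established for any single member.

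The promoters of Rbm7, Nuak1 and Chmp3 are shown because the range of each held a member that was higher in KO heads and a further annotated gene that starts inside the promoter on the opposite strand. RBM7 is the partner of ZCCHC8, NUAK1 is a kinase related to the energy sensor AMPK, and CHMP3 belongs to the membrane-remodelling ESCRT-III machinery. Each sequence is the coding strand, 5′ to 3′, from RefSeq (GRCm38.p6). The windows are chr9:48495281-48495580 (minus strand) for Rbm7, chr10:84440619-84440918 (minus strand) for Nuak1 and chr6:71544103-71544402 (plus strand) for Chmp3. Capitals mark the bases that lie opposite the first bases of Gm5617, Gm47962 and 1700040L08Rik, the further annotated genes of the members RP23-147I23.2, RP23-269O24.5 and RP23-402P24.5. For Chmp3 the window holds only 12 of these bases, for the others 20.
Rbm7: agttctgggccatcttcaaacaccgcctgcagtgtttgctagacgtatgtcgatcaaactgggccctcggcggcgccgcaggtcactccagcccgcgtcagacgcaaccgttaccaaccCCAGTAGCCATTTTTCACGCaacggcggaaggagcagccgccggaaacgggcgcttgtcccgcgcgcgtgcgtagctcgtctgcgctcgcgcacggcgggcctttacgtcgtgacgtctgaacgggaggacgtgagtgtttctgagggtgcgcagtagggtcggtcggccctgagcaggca
Nuak1: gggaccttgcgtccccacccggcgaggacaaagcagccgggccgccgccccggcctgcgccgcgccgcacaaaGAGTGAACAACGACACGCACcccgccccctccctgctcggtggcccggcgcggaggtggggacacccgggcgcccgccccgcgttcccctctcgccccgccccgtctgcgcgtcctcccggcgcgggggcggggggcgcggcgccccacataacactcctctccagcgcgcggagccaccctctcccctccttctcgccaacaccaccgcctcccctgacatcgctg
Chmp3: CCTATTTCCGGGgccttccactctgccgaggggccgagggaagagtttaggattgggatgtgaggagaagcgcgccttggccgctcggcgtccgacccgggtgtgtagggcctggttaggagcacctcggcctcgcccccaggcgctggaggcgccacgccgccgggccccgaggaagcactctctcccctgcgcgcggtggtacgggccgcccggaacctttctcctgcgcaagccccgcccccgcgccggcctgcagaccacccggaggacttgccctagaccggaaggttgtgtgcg

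The coding genes with an opposite-strand non-coding gene starting within 1000 bases were 136, of which 113 had a RefSeq promoter of 300 bases. These promoters held a median of 24 CG pairs, against 21 in the 8629 promoters matched to tested coding loci and 7 in all 27025 promoters. The letters TATAAA, searched on both strands, were in 6.19% of them, in 7.15% of the promoters of tested coding loci and in 14.2% of all promoters. The letters CCAAT, also on both strands, were in 36.3%, 37.8% and 37.9% of these sets in the same order. The promoters were thus rich in CG and poor in TATAAA next to all promoters, and close to other expressed coding genes.

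The 3' ends of further annotated genes showed the letters AATAAA, the usual polyadenylation signal, in 164 of 365 cases. The last 60 bases of the longest annotated transcript held AATAAA in 44.9% of these genes, in 46.2% of 182 other tested non-coding genes and in 61.5% of 11051 tested coding genes. Among the non-coding ones of the 365, the share was 46.2% for 173 that belonged to members higher in KO (exact 95% interval 38.6% to 54.0%) and 39.5% for 119 that did not (30.7% to 48.9%), and the intervals overlapped. Ends are shown for 4 members that were higher in KO, with AATAAA in capitals where present, since it is in 2 of them and not in the other 2. They belong to RP23-128L22.2 (1700023H06Rik, chromosome 13), RP23-198A16.1 (Gm26766, chromosome 15), RP24-212K17.5 (Gm38004, chromosome 9) and RP23-402P24.5 (1700040L08Rik, chromosome 6).
1700023H06Rik: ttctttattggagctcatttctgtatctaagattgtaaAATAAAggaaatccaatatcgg
Gm26766: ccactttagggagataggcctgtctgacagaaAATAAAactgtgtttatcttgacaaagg
Gm38004: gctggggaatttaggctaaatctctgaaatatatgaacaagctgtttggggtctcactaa
1700040L08Rik: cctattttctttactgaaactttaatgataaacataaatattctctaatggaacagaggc

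The labels held for the targeted gene. Zcchc8 stood at 15.5 ± 3.91 FPKM in KO (SD, n = 6), 25.7 ± 1.64 FPKM in HET (SD, n = 3) and 39.7 ± 2.32 FPKM in WT heads (SD, n = 5). KO1 and KO3 had the fewest loci above 0 among KO libraries (28310 and 28450, against 31237 to 32667 in the other KO libraries). Markers of the brain had overlapping summed levels, with 1397 to 1672 FPKM in KO and 1502 to 1648 FPKM in WT for neural progenitors. Lower in KO were 6 of 7 lens markers (29.3 to 145.1 FPKM summed in KO, 105.5 to 145.4 FPKM in WT), 5 of 5 surface epithelium markers (42.7 to 61.7 FPKM in KO, 70.7 to 105.3 FPKM in WT) and 2 of 3 choroid plexus markers. Also lower were 2 of 5 each of head mesenchyme, skeletal muscle (18.4 to 94.8 FPKM summed in KO, 62.7 to 122.9 FPKM in WT) and cartilage markers. Higher in KO were 1 of 6 neural progenitor, 1 of 4 tested erythroid and the 1 tested liver marker. None of these marker lists had a gene at 0 in every library, and their part in the members' differences was not tested.

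Of the members, 47.5% were higher in KO than in WT heads. Differences are of log2(FPKM + 0.1), tested with limma-trend and Benjamini-Hochberg adjustment over all 18217 tested loci at 0.05. At that threshold 435 members were higher and 11 lower, beside a background over all tested loci of 19.0% higher and 5.61% lower. The median difference over members was 0.43 on the log2 scale, against -0.00 over all tested loci. Of the 435, 365 had every KO library above every WT library, 315 were at least 2-fold higher and 166 at least 4-fold higher. Among all 3463 tested loci higher in KO, 2565 were at least 2-fold higher, a share near that of the members. The matching shares over all loci for the other counts are not given here. The median abundance of the 435 members was 1.63 FPKM in KO and 0.387 FPKM in WT heads. With quantile normalization of the log2 values, 280 members were higher (30.6%) and 271 lower (29.6%), and the median turned to -0.09. Over all tested loci that scaling gave 12.8% higher and 20.9% lower. Centring every library on a common median gave 436 and 12 members, beside 18.7% and 6.87% of all tested loci. In the authors' normalized matrix 453 of 876 members were higher (51.7%) and 15 lower (1.71%). All loci tested there gave 40.7% higher and 1.57% lower, so the members' excess was smaller. In the authors' matrix the median of all loci moved to 0.20. Under all 4 scalings 261 members were higher.

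A member could enter through KO libraries alone, and the rule itself then favoured a higher KO value. The 372 members below 0.5 FPKM in all but at most 2 WT libraries are therefore described only: 245 of them were higher in KO and 0 lower. Of the 372, 306 had at least 0.5 FPKM in at least 3 KO libraries and 66 did not. The other 544 had at least 0.5 FPKM in at least 3 WT libraries, and of these 190 were higher (34.9%) and 11 lower (2.02%). Among all 14780 tested loci with that WT abundance, 7.75% were higher and 6.91% lower. Of the 190, 149 had KO libraries entirely above WT, 91 were at least 2-fold higher, and the median difference was 0.97. The matching counts over all loci with that WT abundance are not given here. Under quantile normalization the 544 members had 133 higher and 176 lower, so their direction depended on the scaling. A common median gave 191 higher and 12 lower, and the authors' matrix gave 248 higher and 12 lower of 541. The direction thus turned only under the quantile normalization applied here to the FPKM values. Shares over all loci with that WT abundance under these scalings are not given here. Of the 872 clone-named loci with no coding locus in range, 388 were higher (44.5%) and 10 lower, next to 47.5% of all members. At 0.5 FPKM in 3 WT libraries these were 130 of 502 higher (25.9%) and 10 lower, next to 34.9% of members. The difference between these classes was not tested.

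The median member lay 0.27 to 0.68 above the WT mean on the log2 scale in KO libraries, lowest in KO1, between -0.10 and 0.00 in HET and between -0.11 and 0.09 in WT libraries. The median of all tested loci lay within 0.00 and 0.04 in KO libraries. The summed abundance of members was 2704 to 3258 FPKM in KO, 2051 to 2126 FPKM in HET and 2021 to 2234 FPKM in WT libraries. The number of members at 0.5 FPKM or more was 645 to 831 in KO, 477 to 544 in HET and 512 to 593 in WT libraries, which the rule itself used. In these measures, which include members that entered through KO, no KO library overlapped a HET or WT library. Over the 544 members with at least 0.5 FPKM in 3 WT libraries the median lay 0.08 to 0.33 above the WT mean in KO libraries, against -0.11 to 0.00 in HET and -0.10 to 0.10 in WT libraries, and KO1 lay below WT3 while the other 5 KO libraries lay above every HET and WT library. Their summed abundance was 2390 to 2755 FPKM in KO, 1969 to 2028 FPKM in HET and 1938 to 2120 FPKM in WT libraries, with no overlap.

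**Figure D1:**
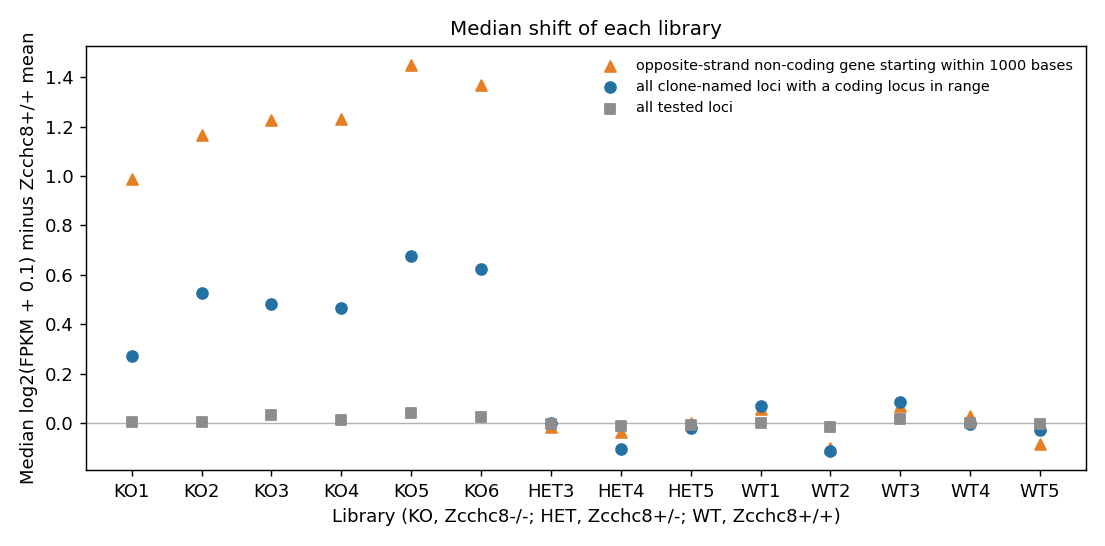
Median deviation of log2(FPKM + 0.1) from the WT mean in each of 14 libraries (x axis), for members whose further annotated gene is non-coding, on the opposite strand and starts within 1000 bases of the coding start (triangles, n = 136), all 916 members (circles) and all 18217 tested loci (squares). KO libraries lie at 0.27 to 0.68 for all members and at 0.99 to 1.45 for the triangles, while HET and WT libraries lie near 0.

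In heterozygous heads no member passed the test. HET against WT gave 0 calls, 35 members had an unadjusted p below 0.05, and every adjusted p was 1 (limma-trend). Over all loci 0.00549% were higher and 0.0% lower, 1 locus in all. The median member difference was -0.05. The smallest p belonged to RP23-164P21.3 in the range of Armc2, an armadillo-repeat gene. In KO libraries it ran from 1.18 over a median of 1.56 to 1.90 FPKM, against 0.126, 0.227 and 0.350 FPKM in HET and 0.0574, 0, 0.0740, 0.0203 and 0.112 FPKM in WT libraries. Every HET library was above every WT library, and KO was above both, though the member had entered through KO. RP24-132N9.2, in the range of Tfap2a, a regulator of neural crest, had 0.774 ± 0.114 FPKM in KO (SD, n = 6) and 0.114, 0.0936 and 0.138 FPKM in HET, below the 0.144 to 0.368 FPKM of WT, and its call in KO against WT was lost under quantile normalization (limma-trend adjusted p = 0.45). This member, too, had entered through KO libraries. RP23-113I19.2, in the range of the leukotriene receptor gene Cysltr1 on chromosome X, had 0.455, 0.869 and 1.34 FPKM in HET and 0.931 to 5.45 FPKM in WT libraries, and these overlapped.

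KO against HET gave a count near that against WT, with which it shares the KO libraries. In that comparison 418 members were higher and 8 lower, beside 17.9% higher and 4.36% lower over all tested loci. Of the 544 members at 0.5 FPKM in 3 WT libraries, 180 were higher (33.1%) and 8 lower (1.47%). All tested loci with that WT abundance gave 7.23% higher and 5.34% lower. The other 372 members, for which the rule favoured a higher KO value, gave 238 higher and 0 lower. RP23-9P6.2, in the range of the semaphorin receptor gene Plxnb1, was among the 3 with the smallest p. It ran from 8.49 over a median of 11.2 to 14.1 FPKM in KO libraries, against 1.12, 0.895 and 1.13 FPKM in HET and 1.16, 0.868, 1.07, 0.847 and 0.841 FPKM in WT. No KO library overlapped a HET or WT library, and the log2 difference was 3.31 from HET (limma-trend adjusted p = 4e-10) and 3.43 from WT (adjusted p = 2.7e-11). RP23-99O13.6, in a range with the ubiquitin-like gene Ubl5, stood at 8.30 ± 0.887 FPKM in KO (SD, n = 6) and 0.441 ± 0.0934 FPKM in HET (SD, n = 3). RP24-179P9.2, in the range of the Cullin adaptor gene Kbtbd2, stood at 3.42 ± 0.213 FPKM in KO (SD, n = 6) and 0.190 ± 0.0253 FPKM in HET (SD, n = 3). Neither RP23-99O13.6 nor RP24-179P9.2 had 0.5 FPKM in 3 WT libraries, so both are given as a description.

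The member in the Rbm7 range was more abundant in KO than any of the 12 largest rises below. RP23-147I23.2 (chr9:48488701-48496429) ran from 24.4 over a median of 36.4 to 41.5 FPKM in KO libraries. It had 7.27, 9.76 and 8.96 FPKM in HET and 6.72, 8.87, 11.4, 12.2 and 8.80 FPKM in WT libraries. Every KO library was above every HET and WT library, and limma-trend gave a log2 difference of 1.84 against WT (SE 0.16, adjusted p = 2.4e-07). Rbm7 itself, in the same range, had 29.2 ± 2.0 FPKM in KO (SD, n = 6), 29.6 ± 0.643 FPKM in HET (SD, n = 3) and 29.4 ± 1.35 FPKM in WT heads (SD, n = 5), with a log2 difference of -0.01 (SE 0.05, adjusted p = 0.92). The mean log2 ratio of the member to Rbm7 was 0.22 in KO and -1.63 in WT (two-sided exact permutation test, p = 0.00433, the smallest that 6 against 5 libraries can give). The further annotated gene, Gm5617, has 1 exon, is annotated as protein-coding, and starts 143 bases upstream of the annotated Rbm7 start on the opposite strand, at the capitals shown above.

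**Figure D2:**
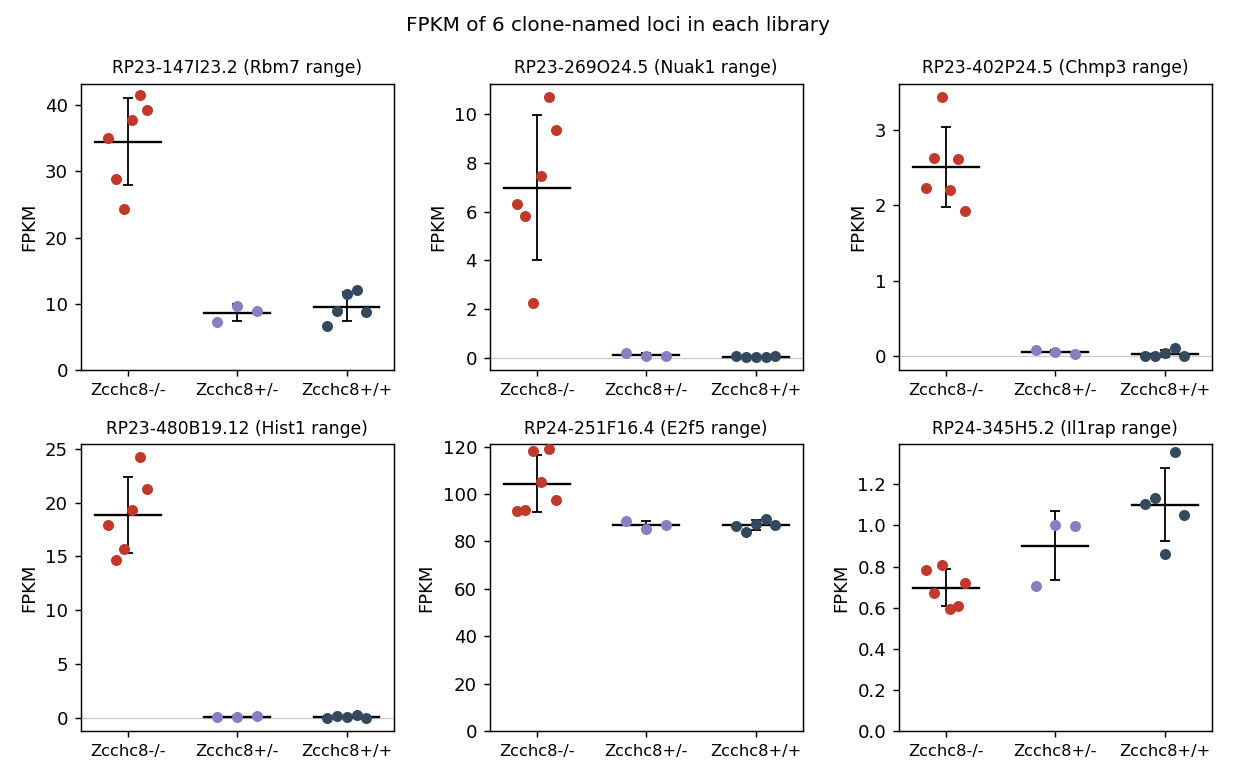
FPKM (y axis, linear) of 6 members in every library of Zcchc8-/-, Zcchc8+/- and Zcchc8+/+ heads. Points are libraries, horizontal bars are group means and error bars are SD. In the panels of Rbm7, Nuak1, Chmp3 and Hist1 ranges all KO points lie above all others, the E2f5 panel shows 92.7 to 119.1 FPKM in KO against 84.0 to 89.5 FPKM in WT, and the Il1rap panel shows KO points below WT.

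Of 5 members in the ranges of exosome and exosome-adaptor genes, 2 were higher in KO and 0 lower, next to 47.5% of all members higher. Besides the Rbm7 range this was RP24-366J10.5, in the range shared by the RNA methyltransferase gene Nsun2, the steroid reductase gene Srd5a1 and Papd7, which codes for a poly(A) polymerase of nuclear RNA. It ran from 0.798 over a median of 1.03 to 1.57 FPKM in KO libraries, against 0.169, 0.163 and 0.264 FPKM in HET and 0.115, 0.0656, 0.133, 0.158 and 0.0996 FPKM in WT libraries. The groups did not overlap, but the member had entered through KO libraries, so its rise is given as a description. Papd7 had 14.9 ± 0.950 FPKM in KO (SD, n = 6) and 15.6 ± 0.595 FPKM in WT (SD, n = 5), which did not pass the test.

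The 12 largest rises, among members that averaged 1 FPKM or more in KO with all KO libraries above the WT mean, spanned log2 differences of 4.19 to 6.75. All 12 had KO libraries above every HET and WT library, and none had 0.5 FPKM in 3 WT libraries, so all had entered through KO. The largest was RP23-480B19.12 in a range with 19 coding loci on chromosome 13, most of them of the histone cluster Hist1. It ran from 14.7 over a median of 18.6 to 24.2 FPKM in KO libraries, against 0.115, 0.0615 and 0.166 FPKM in HET and 0, 0.132, 0.0829, 0.266 and 0 FPKM in WT. Of the 16 coding loci tested in that range, 11 were higher in KO, all of Hist1, 1 was lower and 4 did not pass the test. Over all tested coding loci 7.07% were higher. A locus named Hist1h3e (0 to 0.0473 FPKM in WT libraries) and Hist1h2ac (0.355 to 0.477 FPKM) were tested only through their KO values. Among the higher ones Hist1h3c had 22.2 ± 6.87 FPKM in KO (SD, n = 6) and 8.11 ± 1.17 FPKM in WT (SD, n = 5), and Hist1h4b 11.2 ± 3.88 FPKM in KO and 3.51 ± 0.381 FPKM in WT. The lower one was Hist1h2bc, with 4.63 ± 0.497 FPKM in KO and 6.64 ± 0.449 FPKM in WT. Near-identical histone copies can share fragments. These 12 were the only coding loci called in the ranges of the 12 rises. Among the other ranges, 10 had a single tested coding locus and none of these 10 coding loci passed the test.

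RP23-269O24.5, in the Nuak1 range (chr10:84370900-84467009), ran from 2.26 over a median of 6.89 to 10.7 FPKM in KO libraries. It had 0.209, 0.0727 and 0.0779 FPKM in HET and 0.0839, 0.0310, 0.0485, 0.0408 and 0.0631 FPKM in WT libraries. The log2 difference from WT was 5.40, given as a description since the member entered through KO, whereas Nuak1 had 14 ± 0.969 FPKM in KO (SD, n = 6) and 14.6 ± 0.463 FPKM in WT (SD, n = 5), a difference of -0.05. Gm47962, the further annotated gene, is annotated as a bidirectional promoter lncRNA of 4 exons and starts 229 bases upstream of the Nuak1 start.

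RP23-402P24.5, in the Chmp3 range (chr6:71543192-71582609), ran from 1.93 over a median of 2.43 to 3.44 FPKM in KO libraries. In HET it had 0.0706, 0.0504 and 0.0233 FPKM, and in WT 0, 0, 0.0312, 0.105 and 0 FPKM. Chmp3 had 26.8 ± 0.865 FPKM in KO (SD, n = 6) and 27.9 ± 1.46 FPKM in WT (SD, n = 5). Here 1700040L08Rik, an antisense gene of 2 exons, starts 317 bases downstream of the GENCODE start of Chmp3, and RefSeq places the start of Chmp3 further downstream, so that the same base falls in its upstream promoter window.

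RP24-212K17.5, in the range of Pfkfb4, which codes for a regulator of glycolysis, ran from 2.39 over a median of 4.38 to 6.13 FPKM in KO libraries, against 0.00946 to 0.172 FPKM in WT. Its further annotated gene Gm38004 has 1 exon and starts 208 bases upstream of Pfkfb4 on the opposite strand. RP23-128L22.2, in the range of the arrestin-domain gene Arrdc3, stood at 6.16 ± 1.46 FPKM in KO (SD, n = 6) and 0.167 ± 0.10 FPKM in WT (SD, n = 5), and its further annotated gene 1700023H06Rik starts 2140 bases downstream on the opposite strand. RP23-311A21.2, in the range of Snrnp35, a part of the minor spliceosome, and Rilpl1, stood at 4.91 ± 0.572 FPKM in KO (SD, n = 6) and 0.182 ± 0.0861 FPKM in WT (SD, n = 5). In 5 of the 12 ranges there was exactly 1 further annotated gene, and in all 5 it lay on the strand opposite to the coding gene.

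For the rest of the 12, no position could be given. RP24-183E22.2 in the range of the microtubule-binding gene Clasp1 stood at 6.02 ± 1.48 FPKM in KO (SD, n = 6) and 0.0576 ± 0.0351 FPKM in WT (SD, n = 5). RP24-132L16.14 in the range of Msi1, an RNA-binding protein of neural progenitors, had 3.44 to 4.27 FPKM in KO and 0 to 0.132 FPKM in WT libraries, and Msi1 itself had 123 ± 14.2 FPKM in KO (SD, n = 6) and 110 ± 13 FPKM in WT (SD, n = 5). The members in the ranges of Fbxl5 (RP23-336O18.2), Herc4 (RP24-477D23.1), Galnt7 (RP23-383A10.7) and Zfp280d (RP23-292F17.5) had means of 2.30 to 2.60 FPKM in KO and of 0.0194 to 0.0410 FPKM in WT heads.

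Most coding loci of the same ranges did not pass the test. Of 1140 coding loci tested in the ranges, 112 were higher and 60 lower in KO (9.82% and 5.26%), next to 7.07% higher and 7.42% lower over all 11880 tested coding loci. For 615 members the range held exactly 1 tested coding locus. Where the member was higher (314 members with 307 distinct coding loci), 18 coding loci were higher and 18 lower, and over the members the median coding difference was -0.02, with the 5th and 95th percentiles at -0.27 and 0.23. The median difference of those 314 members was 1.63. Where the member was not higher (the other 301, with 283 distinct coding loci), 17 coding loci were higher and 18 lower. Over the 615 pairs Pearson's r was 0.019 and Spearman's rho 0.071, a description across loci that share libraries and ranges. The member was below its coding locus in FPKM, a scale per transcript length, for 576 pairs in KO and 583 in WT. Where the member was higher, the coding locus had a median of 18.7 FPKM in KO and 18.8 FPKM in WT and stood a median of 8.69 times above the member in KO.

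**Figure D3:**
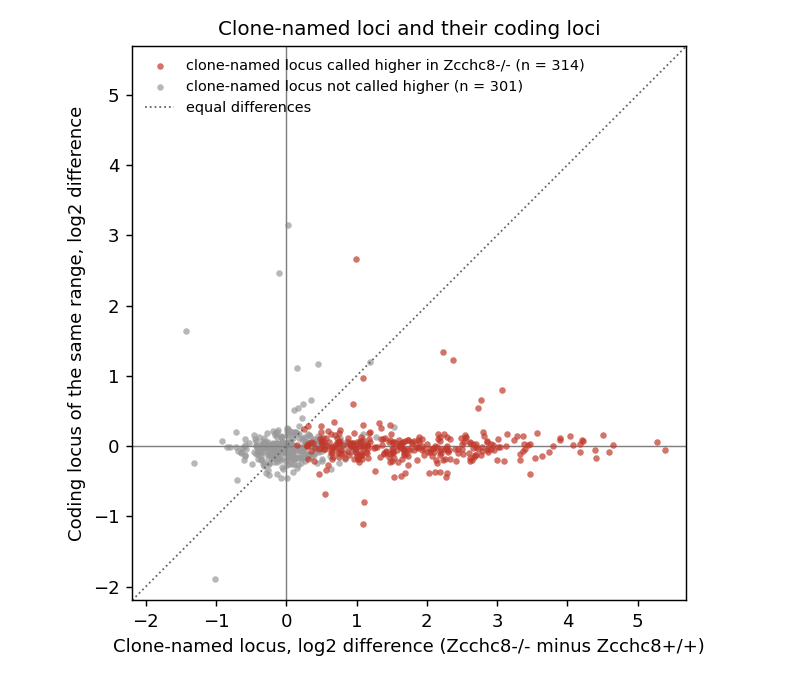
Log2 difference (KO minus WT) of each member (x axis) and of the only tested coding locus of its range (y axis), for 615 pairs. Members called higher are red (n = 314) and the others grey (n = 301). The points spread along the x axis up to 5.40 while most coding loci stay near 0, and the dotted line marks equal differences.

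A few ranges departed from this. Among the 314 pairs with a higher member, the coding difference was largest for Frmd4a at 2.66, beside 1.0 for RP23-416H10.4, a pair picked after its values were seen. In the Fam172a range, RP23-471B6.7 stood at 1.97 ± 0.469 FPKM in KO (SD, n = 6) and 0.206 ± 0.0351 FPKM in WT (SD, n = 5), and Fam172a rose to 33.6 ± 2.45 FPKM in KO against 23.0 ± 1.59 FPKM in WT (log2 difference 0.55, limma-trend adjusted p = 3.5e-06). In the Zic1 and Zic4 range, which holds genes of cerebellar development, RP23-340C13.9 had 0.477 to 2.06 FPKM in KO and 0 to 0.407 FPKM in WT libraries, and its call was lost under quantile normalization (limma-trend adjusted p = 0.19). Zic4 was listed as a pair of loci there, and they had 19.2 ± 2.93 and 1.67 ± 0.541 FPKM in KO (SD, n = 6) against 12.8 ± 2.45 and 0.113 ± 0.0395 FPKM in WT (SD, n = 5), both higher, while Zic1 had 52.2 ± 7.0 FPKM in KO and 51.1 ± 6.51 FPKM in WT. RP23-471B6.7, RP23-340C13.9 and the less abundant Zic4 locus did not have 0.5 FPKM in 3 WT libraries, so their rises are given as a description.

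Members were called higher in different shares by the type, strand and start of the further annotated gene. Of the 365 further annotated genes, 292 were non-coding, 50 protein-coding and 23 pseudogenes. Members with a non-coding one were higher in 173 of 292 cases and lower in 1, with a median log2 difference of 0.79, and members with a coding one in 10 of 50 and 2, with a median of 0.07. Among the non-coding ones, 259 lay on the strand opposite to the coding gene and 33 on the same strand. Starts within 1000 bases of the coding start occurred only on the opposite strand, for 136 members, of which 108 were higher and 0 lower (median 1.16). Beyond 1000 bases on the opposite strand 58 of 123 were higher and 1 lower (median 0.35), and on the same strand 7 of 33 were higher (median 0.14). Under quantile normalization the first class had 75 higher and 7 lower (median 0.58), whereas the medians of the other classes turned to -0.36 and -1.01. Members at 0.5 FPKM in 3 WT libraries gave 51 of 75 within 1000 bases, 20 of 72 beyond and 0 of 16 on the same strand.

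Within the opposite strand, 16 of 22 members were higher for starts up to 100 bases apart, 37 of 45 for 101 to 300 bases, 55 of 69 for 301 to 1000 bases, 28 of 46 for 1001 to 5000 bases and 30 of 77 for longer distances. By side, within 1000 bases, 38 of 46 were higher for starts upstream of the coding start and 70 of 90 for starts downstream of it, inside the gene. These classes were chosen with the values known and the differences between them were not tested. Their counts include members that entered through KO libraries, where the rule favoured a higher value.

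**Figure D4:**
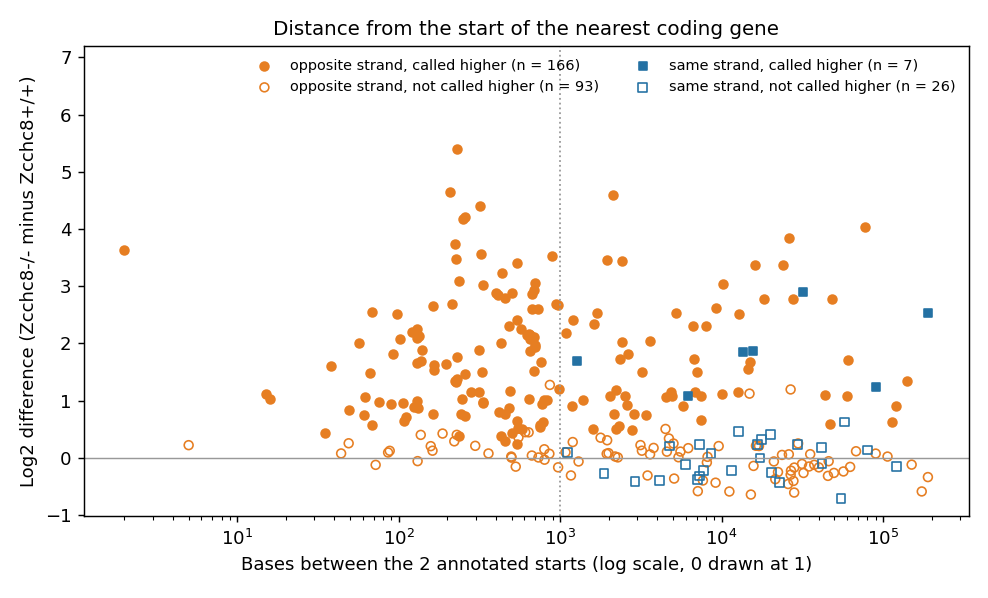
Log2 difference (KO minus WT) of 292 members with a non-coding further annotated gene, by the distance in bases between its start and the nearest coding start of the range (log axis). Circles are genes on the opposite strand, squares genes on the same strand, and filled symbols members called higher. Left of the dotted line at 1000 bases there are only opposite-strand genes, 108 of 136 filled.

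By annotated type, 17 of 20 members with a bidirectional promoter lncRNA were higher, 25 of 36 with a lincRNA, 83 of 140 with an antisense gene, 22 of 41 with a processed transcript, 24 of 48 with a gene marked to be experimentally tested and 2 of 7 with a sense intronic gene. The first of these types is itself defined by position. By exon number, 58 of 87 members with a single-exon non-coding gene were higher, 66 of 103 with 2 exons, 26 of 57 with 3 exons and 23 of 45 with 4 or more. The counts by type and exon number include members that entered through KO libraries, where the rule favoured a higher value. They are a description and are not split here by WT abundance.

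**Figure D5:**
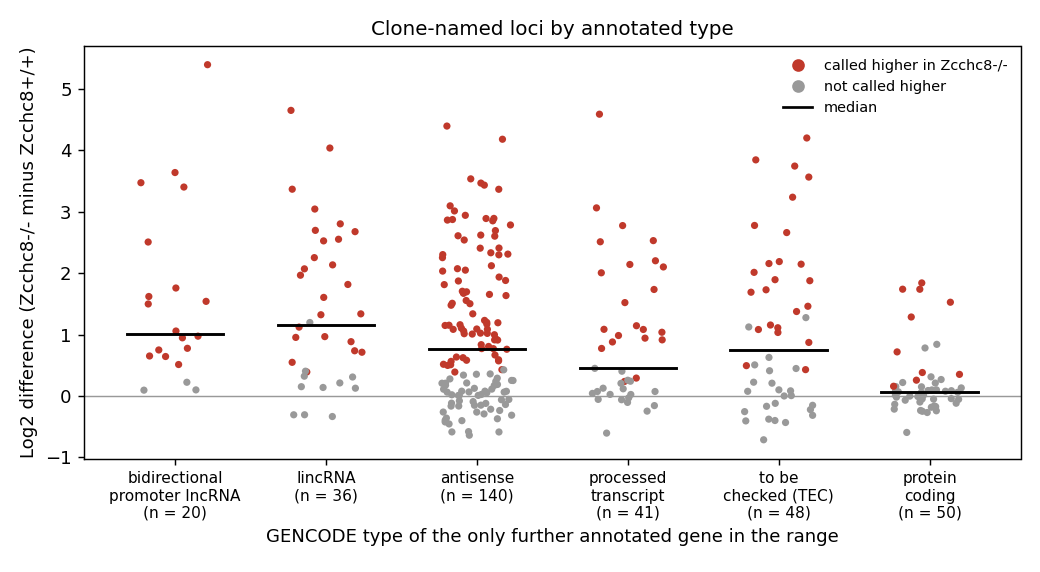
Log2 difference (KO minus WT) of members by the GENCODE type of the further annotated gene (x axis, number of members in brackets). Points are members, red where called higher in KO, and black bars are medians. The medians lie between 0.45 and 1.16 for the 5 non-coding types drawn and at 0.07 for protein-coding genes.

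Of the 6 members with the highest mean over all libraries, RP24-251F16.4 was higher in KO, RP23-42N14.3 was lower and the other 4 did not pass the test on FPKM values, whereas all 4 passed as higher in the authors' matrix. In 3 of their ranges the further annotated gene is protein-coding, so clone names did not always stand for non-coding genes, as far as the elimination holds. RP23-55L3.5, in the range of the basement membrane gene Nid2, where the further annotated gene is Rtraf, had 114.5 to 137.6 FPKM in KO libraries, against 115 ± 0.681 FPKM in HET (SD, n = 3) and 118 ± 7.89 FPKM in WT (SD, n = 5). It did not pass the test on FPKM values but did in the authors' matrix (log2 difference 0.15, limma-trend adjusted p = 0.031). RP24-251F16.4, in the range of the cell cycle regulator E2f5 (further annotated gene 1810022K09Rik), ran from 92.7 over a median of 101.3 to 119.1 FPKM in KO libraries, against 88.4, 85.2 and 87.0 FPKM in HET and 86.7, 84.0, 87.3, 89.5 and 87.0 FPKM in WT. KO did not overlap WT, and the log2 difference was 0.26 (SE 0.07, limma-trend adjusted p = 0.008), beside 0.24 for E2f5 (adjusted p = 0.0015). The mean log2 ratio of member to E2f5 was 2.54 in KO and 2.52 in WT (two-sided exact permutation test, p = 0.853).

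RP23-452K4.2 in the range of Simc1 had 74.5 ± 3.42 FPKM in KO (SD, n = 6) and 71.0 ± 2.05 FPKM in WT (SD, n = 5). RP24-262G23.6, in the range of Cpsf2, a subunit of the 3' end cleavage machinery, had 62.8 ± 7.0 FPKM in KO and 58.6 ± 5.63 FPKM in WT, and RP23-32L15.2, in a range with the cell cycle phosphatase gene Cdc25b, had 44.4 ± 6.18 FPKM in KO and 40.6 ± 1.96 FPKM in WT. None of these passed the test on FPKM values. They passed in the authors' matrix, in which all loci had a median difference of 0.20, with log2 differences of 0.18, 0.22 and 0.26 (limma-trend adjusted p 0.0051 to 0.033). Without KO3, which was lowest at 32.7 FPKM, RP23-32L15.2 also passed the test on FPKM values (log2 difference 0.20, limma-trend adjusted p = 0.0041).

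The falls were few. Of 11 members lower in KO, 4 had KO libraries entirely below WT (RP24-345H5.2, RP24-112H7.1, RP24-271F24.2 and RP24-396L14.1). How many of all loci lower in KO did so is not given here. RP23-411N10.3 in the range of Dnm2 and Tmed1, chosen after its values were seen, was listed at 0 in all KO and HET libraries, and in WT at 0.808, 0, 0, 3.22 and 0.877 FPKM, so WT overlapped both at 0. It passed at an adjusted p of 0.032 (limma-trend), and its call was lost when any 1 of 6 libraries was left out (0.051 to 0.092). RP24-345H5.2, in the range of the interleukin-1 receptor partner gene Il1rap, ran from 0.592 over a median of 0.696 to 0.810 FPKM in KO libraries, against 0.707, 1.0 and 0.996 FPKM in HET and 1.11, 1.13, 0.862, 1.36 and 1.05 FPKM in WT. KO lay below WT and overlapped HET, and the log2 difference was -0.59 (SE 0.13, limma-trend adjusted p = 0.0038). RP23-79E13.6, in the N4bp3 range (further annotated gene D930048N14Rik, protein-coding), had 0.405 ± 0.145 FPKM in KO (SD, n = 6) and 0.641 ± 0.0881 FPKM in WT (SD, n = 5), which overlapped, and its call was lost without any 1 of 7 libraries (adjusted p 0.056 to 0.084). The calls of RP23-213P14.3 (Cpq range) and RP23-180A8.3 were lost in 5 and 9 such cases. RP24-112H7.1 in the Atxn7l1 range had 2.11 ± 0.243 FPKM in KO (SD, n = 6) and 2.86 ± 0.325 FPKM in WT (SD, n = 5). RP23-231E23.4 (Ifitm7 range), RP24-271F24.2 (range of the Src-family kinase gene Fyn) and RP23-349B15.4 (range of the forkhead factor gene Foxk2, further annotated gene Cybc1) were lower by 0.22 to 0.31 on the log2 scale. RP23-42N14.3 (Acp2 and Ddb2 range) had 37.6 ± 3.05 FPKM in KO and 43.0 ± 2.83 FPKM in WT, and its call was lost without any of KO4, KO5, KO6, WT1, WT3 or WT4 (adjusted p 0.054 to 0.091). In the authors' matrix RP24-271F24.2 turned to 0.015 and the calls of RP24-112H7.1, RP23-231E23.4, RP23-349B15.4 and RP23-42N14.3 were lost.

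In the Fyn range, Fyn was listed as a pair of loci. The abundant one had 49.4 ± 4.75 FPKM in KO (SD, n = 6) and 51.0 ± 3.32 FPKM in WT (SD, n = 5), and the other 1.64 ± 0.334 FPKM in KO and 0.371 ± 0.212 FPKM in WT, higher by 2.0 on the log2 scale (limma-trend adjusted p = 3.2e-05). That second locus had 0.0914 to 0.643 FPKM in WT libraries and was tested through its KO values, so its rise is given as a description.

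Of 46 members in ranges that hold a developmental transcription factor gene, by a list of name stems, 20 were higher and 2 lower in KO (43.5% and 4.35%). The share higher was near the 47.5% of all members. Of the 22 called, 18 had KO and WT libraries that did not overlap, next to 365 of all 435 higher and 4 of all 11 lower members. The matching share over all loci is not given here. Only 10 of the 22 had 0.5 FPKM in 3 WT libraries, and for the others the rule favoured a higher KO value. RP24-351J24.2, in the range of the forebrain homeobox gene Lhx5, ran from 11.3 over a median of 14.1 to 15.8 FPKM in KO libraries, against 8.12, 6.41 and 7.46 FPKM in HET and 9.26, 8.56, 10.9, 8.37 and 9.18 FPKM in WT. KO was above both, with a log2 difference from WT of 0.57 (SE 0.10, limma-trend adjusted p = 0.00033), while Lhx5 had 17.2 ± 2.79 FPKM in KO (SD, n = 6) and 15.7 ± 2.15 FPKM in WT (SD, n = 5). Its further annotated gene Gm27199 starts 68 bases downstream of the Lhx5 start on the opposite strand.

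RP23-289E11.2, in the range of the homeobox gene Irx2, ran from 3.08 over a median of 3.28 to 3.62 FPKM in KO libraries, against 1.87, 1.55 and 1.94 FPKM in HET and 1.98, 1.86, 2.33, 1.94 and 1.67 FPKM in WT, with no overlap. RP23-399K8.5, in the range of the eye and forebrain factor gene Lhx2, had 3.23 ± 0.771 FPKM in KO (SD, n = 6), 1.14 ± 0.195 FPKM in HET (SD, n = 3) and 0.998 ± 0.202 FPKM in WT (SD, n = 5). RP23-148P22.2 in the Sall3 range had 2.28 ± 0.556 FPKM in KO and 0.666 ± 0.171 FPKM in WT. A pair of members shared the Klf3 range, and RP24-448C16.2 had 7.32 ± 1.82 FPKM in KO and 3.59 ± 0.480 FPKM in WT, whereas RP23-326O2.2 had 1.25 ± 0.233 FPKM in KO and 0.0289 ± 0.0193 FPKM in WT. RP23-326O2.2 did not have 0.5 FPKM in 3 WT libraries, so its rise is given as a description. Klf3, a Krüppel-like zinc finger factor, had 13.1 ± 1.24 FPKM in KO and 12.9 ± 1.10 FPKM in WT.

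RP23-174O19.2, in the range of Sox3 on chromosome X, had 0.926 ± 0.229 FPKM in KO (SD, n = 6) and 0.299 ± 0.0633 FPKM in WT (SD, n = 5), and RP23-177N16.1, in the Ebf2 range, had 3.41 ± 1.09 FPKM in KO and 0.387 ± 0.441 FPKM in WT, where WT3 alone reached 1.16 FPKM. Under quantile normalization the call of RP23-174O19.2 was lost (log2 difference 0.38, limma-trend adjusted p = 0.20). RP23-358O22.1, which the list of stems caught through Gatad2b, a subunit of the NuRD complex, had 2.65 ± 0.528 FPKM in KO and 0.0633 ± 0.0360 FPKM in WT. RP23-174O19.2, RP23-177N16.1 and RP23-358O22.1 did not have 0.5 FPKM in 3 WT libraries, so their rises are given as a description. The lower ones were RP23-349B15.4 of the Foxk2 range and RP24-396L14.1 of the Foxb1 range, which had 0.385 ± 0.0652 FPKM in KO and 0.662 ± 0.166 FPKM in WT. The call of RP24-396L14.1 was lost without WT2 or WT3. RP23-133N21.3 of the Foxp1 range was at 0.0693 FPKM in KO1 and 0.813 to 1.44 FPKM in the other KO libraries, overlapped WT at 0.0674 to 0.70 FPKM, and lost its call without any of 8 libraries (adjusted p 0.064 to 0.096). RP23-223M20.2 of the Tcf20 range and RP23-5H10.2 of the Isl2 range also overlapped WT and lost their calls without 1 library, in 8 cases and 2 cases. Under quantile normalization the calls of these 3 members were lost as well, and that of RP23-5H10.2 turned to -0.56. RP23-5H10.2 did not have 0.5 FPKM in 3 WT libraries either.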

How the data were processed

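Whole-head RNA of mouse embryos was measured in 6 KO, 3 HET and 5 WT libraries made with a stranded poly(A) kit, per the labels' protocols. The authors deposited FPKM values per locus for each library, and a matrix of log2 values whose columns share their quartiles and which is blank where FPKM is 0. Cuffdiff, TopHat2 2.1.0, Partek, FastQC 0.10.0 and bcl2fastq, with the build mm10, are listed in the submitters' processing notes without their roles. The strand setting and gene models are not stated in the sources used here. Without counts the depth is unknown, and fragments of overlapping loci cannot be told apart.

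Loci with at least 0.5 FPKM in at least 3 libraries (18217) were tested on log2(FPKM + 0.1) with limma-trend, robust, on all 14 libraries without covariates (limma 3.58.1, R 4.3.3), adjusted by Benjamini-Hochberg over all of them at 0.05. The pseudocount understates changes of low loci. On simulated data with known changes over 18217 loci, 56% of simulated differences of 0.5 and 96% of those of 2 log2 units were found in KO against WT, beside 5 false calls. Single values were compared by exact permutation tests (scipy 1.17.1). Positions, strands and types came from GENCODE M21, since the ranges alone gave none. Of 11577 single-name loci alone in their range, 11569 overlapped the GENCODE gene of their name. Promoters came from RefSeq.

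Members and lists were chosen with earlier results of these data known. Named are the 12 largest rises and up to 8 largest falls with a mean of at least 1 FPKM in the higher group and all KO libraries on 1 side of the WT mean, which gave 6 falls. Also named are the 6 most abundant members, the 3 with the smallest p in each other comparison, and called members in ranges of 2 gene lists. Not all named members are described. Tried beside these were other pseudocounts (0.5 and 1), other filters, other scalings, the authors' matrix, the compared groups alone, a replicate block and leaving out libraries.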

Additional observations from a re-analysis of the deposited data

Results flagged for a closer look

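In 54 members named by rule, the 6 KO and 5 WT values were searched for a library far from the others (Dixon's test at 95%), and 12 such values were found in 108 groups, where chance gives about 1 in 20. In KO libraries, RP24-262G23.6 of the Cpsf2 range was high in KO3 at 76.2 FPKM, RP23-113I19.2 of the Cysltr1 range was high in KO6 at 2.87 FPKM and RP23-174O19.2 of the Sox3 range was high in KO2 at 1.39 FPKM. RP23-326O2.2 of the Klf3 range was low in KO1 at 0.813 FPKM and high in WT3 at 0.0627 FPKM. In WT libraries, RP23-452K4.2 of the Simc1 range was low in WT4 at 67.4 FPKM and RP23-239F11.1 of the Pax1 and Nkx2-2 range was low in WT3 at 0.254 FPKM. High in WT1 were a locus named RP23-263C23.4, at 0.230 FPKM while the other WT libraries were listed at 0, and RP23-471B6.7 of the Fam172a range at 0.268 FPKM. RP23-177N16.1 of the Ebf2 range was high in WT3 at 1.16 FPKM, RP23-292F17.5 of the Zfp280d range in WT4 at 0.10 FPKM, and RP23-27I6.2 of the Gata1 range in WT5 at 0.0212 FPKM, where all other WT values were 0.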

How the results depend on the processing

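Depth is unknown, positions rest on elimination by annotation, and values below 0.5 FPKM are few fragments. The omission of each library in turn left 414 to 451 members higher and 7 to 14 lower in KO against WT, 368 to 428 higher and 3 to 10 lower in KO against HET, and 0 to 0 called in HET against WT. Over all loci the ranges were 3232 to 3620 higher and 675 to 1247 lower in KO against WT, 2837 to 3398 higher and 267 to 932 lower in KO against HET, and 0 to 2 called in HET against WT. Without KO1 and KO3, left out after the data were seen, 448 members were higher in KO against WT and 2 loci were called in HET against WT.

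Quantile normalization gave 280 members higher and 271 lower in KO against WT and 249 higher and 201 lower in KO against HET, and over all loci 3801 lower in KO against WT, 2092 higher and 3256 lower in KO against HET and 2 called in HET against WT. It reversed RP23-432N1.7 (-0.41), RP23-239F11.1 (-0.29), RP24-176P19.3 (-0.27), RP23-5H10.2 (-0.56) and RP23-32C16.1 (-0.96), and the calls of RP24-132N9.2, RP23-223M20.2, RP23-133N21.3, RP23-340C13.9, RP23-27I6.2 and RP23-174O19.2 were lost (differences 0.05 to 0.87, adjusted p 0.098 to 0.87), while RP23-113I19.2 and RP23-429E19.2 passed as lower (-1.07 and -2.03). Of the reversed members, only RP23-32C16.1 passed as lower (limma-trend adjusted p = 0.018). The cause was not tested. Of 17141 loci, the authors' matrix gave 6969 higher (40.7%) and 269 lower in KO against WT and 217 lower in KO against HET. It reversed RP24-271F24.2 (0.015). It ended 8 named calls, those of RP24-112H7.1, RP23-231E23.4, RP23-349B15.4, RP23-42N14.3, RP23-432N1.7, RP24-176P19.3, RP23-133N21.3 and RP23-5H10.2, and added those of RP23-55L3.5, RP23-452K4.2, RP24-262G23.6 and RP23-32L15.2. The cause was not tested.

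At 1 FPKM in 5 libraries, which tests fewer loci, 276 members were higher in KO against WT, 276 in KO against HET and 5 lower in KO against WT. Over all loci 1844 were higher in KO against WT, 1772 in KO against HET and 0 called in HET against WT. With no filter 7 members were lower in KO against WT and 2 loci called in HET against WT. The compared groups alone gave 7 members lower in KO against WT, 451 loci lower in KO against HET and 3 called in HET against WT. Pseudocounts of 0.5 and 1 gave 0 loci called in HET against WT.

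Samples with the same replicate number did not deviate together (correlations of deviations from the group means -0.11 to 0.10). With the number as a block, 645 loci were lower in KO against WT, 409 lower in KO against HET and 0 called in HET against WT, with 2 members lower in KO against HET and 406 higher in KO against WT. Requiring an overlap of 50% of the range kept all 916 members, which was fixed in advance, since each had exactly the range of a coding locus. A window of 40 bases put AATAAA in 43.3% of ends.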
